A study of Mus musculus with 12 samples.

Results

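The cyclins, the cyclin-dependent kinases (CDKs) and the E2F transcription factors form the machinery that carries a cell through its division cycle. Their genes were followed in CD8+ T cells, the cytotoxic lymphocytes, from the spleens of C57BL/6 mice, an inbred laboratory strain. They were chosen by symbol: cyclins A, B, C, D, E, F, H, K, L and T, the numbered CDKs, the numbered E2Fs, the E2F dimer partners Tfdp1 and Tfdp2, the pocket proteins Rb1, Rbl1 and Rbl2, and the CDC25 phosphatases. This gave 53 genes of the 24421 symbols counted. The cells of one group received an inhibitor of EZH2 (EZH2i, n = 6 libraries), the methyltransferase of the Polycomb complex PRC2, whose mark on histone H3 goes with gene silencing. The other group received DMSO alone, the solvent (n = 6 libraries). No source used here gives the inhibitor's name, dose or duration, the age of the mice or how the cells were cultured. Whether the 6 libraries of each group stand for 6 mice is likewise not labelled. The spread that the p-values are based on may therefore be technical.

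In textbook terms, D cyclins are made in response to growth signals and activate CDK4 and CDK6, which phosphorylate the retinoblastoma protein and its relatives, the pocket proteins. Phosphorylated pocket proteins release E2F factors, which switch on the genes of DNA replication, among them the E cyclins that activate CDK2. Cyclin A then acts in S phase, and the B cyclins with CDK1 drive mitosis. A resting T cell that meets antigen enters this cycle and divides rapidly, while CDK inhibitor proteins hold it back. Further CDKs, with cyclins C, H, K, L and T, act on RNA polymerase II and on splicing.

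Polyadenylated RNA was counted per gene by sequencing, with 19610258 to 31206228 counts in the EZH2i libraries and 17215483 to 28092434 in the DMSO libraries. Levels are CPM, counts scaled to the library size times its TMM factor, given as mean ± SD over the 6 libraries of a group. The TMM factor was 1.01 to 1.04 in EZH2i libraries and 0.967 to 0.992 in DMSO libraries. TPM and shares of the counts, given below, carry no such factor. Log2 fold changes are EZH2i over DMSO. Tests used the quasi-likelihood method of edgeR, with p-values adjusted by Benjamini-Hochberg over the 11727 genes tested, and a gene was called higher or lower at an adjusted p under 0.05. The labels number the libraries 1 to 6 in both groups. Same-numbered libraries tended to deviate together, so a fit with the number as a block (the replicate block) is given where it changes a call. Of the 6 EZH2i libraries, 4 correlated best with the DMSO library of their own number, and those numbered 3 and 5 did not. This pairing is inferred from the data alone, and it rests largely on the libraries numbered 6, which stand apart from the others in both groups: 28.5% of all tested genes were highest and 31% lowest in library 6 of both groups. Values without both of them are therefore given beside the results. CD8 T cell markers were abundant. Cd8a averaged 885 ± 47.3 CPM in EZH2i and 1091 ± 31.1 CPM in DMSO, and was called lower. Of the 5 CD8 T cell genes found, 2 were called lower and none higher, and their summed level was 2216 to 3346 CPM in EZH2i and 3001 to 4080 CPM in DMSO. Of the 5 CD4 T cell genes, Cd4 was at 0.098 CPM in EZH2i and 0.089 CPM in DMSO and Cd40lg likewise near 0, while Zbtb7b was called higher (22.2 ± 3.99 CPM in EZH2i and 14.6 ± 1.85 CPM in DMSO, adjusted p = 0.00654). The summed level of these 5 was 208 to 574 CPM in EZH2i and 253 to 449 CPM in DMSO, mostly Ctla4, which was not called. That of the 5 stromal and endothelial genes was 60.2 to 180 CPM in EZH2i and 87.9 to 195 CPM in DMSO, nearly all Pecam1, with no call. Among other markers, Klra8, Klra4, Fcgr1 and 5 of 7 erythroid genes were at 0 in all libraries, and the B cell list at 14.8 to 21.8 CPM in EZH2i and 19.2 to 25.3 CPM in DMSO was nearly all Cd79b. The summed level of the 5 NK cell genes was 6.66 to 12.2 CPM in EZH2i and 3.76 to 4.94 CPM in DMSO, that of the 8 myeloid genes found 4.86 to 14.6 CPM in EZH2i and 1.73 to 7.32 CPM in DMSO, and that of the 6 dendritic cell genes 1.30 to 3.77 CPM in EZH2i and 0.179 to 1.69 CPM in DMSO. In each of the NK cell, myeloid and dendritic cell lists 1 gene was called higher (Klrb1c, Itgam and Itgax), and the part of these cells in the results was not tested.

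How many genes of the cell cycle machinery were called depended on how the libraries were compared: 7 of the 48 tested without the replicate block, 23 with it. In both of these fits both E cyclins, cyclins C and H and the kinase Cdk17 were lower with EZH2i, and the kinases Cdk10 and Cdk14 were higher. Ccnd2 and Ccnd3, the D cyclins tested, were not called. Of the 53 genes, 48 had enough counts to be tested. Without the block, 2 were called higher, 5 lower and 41 neither, where 19.3% of all tested genes were called, 13.3% higher and 6.05% lower. Taken over both directions, the share of members called was near that of all genes and is no result about them. By direction it was below for higher calls and above for lower ones. The same held for all genes at high levels, given below. The median log2 fold change of the 48 was -0.12, against -0.01 for all tested genes, with 32 negative and 16 positive. Genes at the levels of most members had medians nearer to theirs, as given below. All 53 genes together took 0.545% to 0.565% of the counts in EZH2i libraries and 0.577% to 0.587% in DMSO libraries, with every EZH2i library below every DMSO library.

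With the replicate block, 3 members were called higher and 20 lower, against a background of 49.0% of all genes called, 24.7% higher and 24.3% lower. The genes that gained a call were in part the core of the cycle: Ccna2, Ccnb1, Ccnb2, Ccnf, Cdk2, Cdk4, E2f2, E2f4, E2f7, E2f8, Tfdp1, Cdc25a and Cdc25b, with Cdk9 and Cdk12 also lower and Ccnl2 higher. Without both libraries numbered 6 and with no block, 6 were called higher and 18 lower, against 44.8% of all genes called, 23.9% higher and 20.9% lower. With the block and without these libraries, 6 were called higher and 21 lower, against 50.2% of all genes, 26.0% higher and 24.2% lower. DESeq2 called 5 higher, of which Ccnd1 and Cdk18 are not among the 48, and 9 lower, against 23.4% of the genes it tested, 15.3% higher and 8.06% lower. With upper-quartile scaling 3 were higher and 4 lower, against 18.3% of all genes, 15.3% higher and 2.96% lower. With no filter on low counts 4 were higher, again with Ccnd1 and Cdk18, and 5 lower, against 14.7% of the genes fitted, 10.8% higher and 3.89% lower. Leaving out 1 library at a time, members called lower ranged from 1, without EZH2i library 4, to 13, without EZH2i library 6. The count was 2 without EZH2i library 3 or 5 and 8 without DMSO library 6. Of the 48, 2 to 3 were called higher in these 12 fits. Ccnd1 entered 7 of them and was called higher in all 7, which brings the highest count to 4. Ccnd1 could pass the filter on low counts only through the EZH2i libraries, where it is high, and so had to differ to be tested. Its 7 calls are therefore no sign of stability. In all 6 same-numbered pairs, 19 members were lower in EZH2i, against 19.2% of all genes, and 4 were higher, against 21.2%. When all tested genes were split by level into 4 groups of equal size, 25 of the 48 lay in the highest, from 77.8 CPM up, where 11.7% of all genes were called lower and 3.44% higher without the block and 42.1% lower with it. In the lowest group, from 0.318 to 8.61 CPM, 0.887% of genes were called lower and 30.0% higher. The median log2 fold change of all genes was -0.11 in the highest group and -0.07 in the next, which held 13 of the 48. The members' counts and their median of -0.12 are thus to be read beside their high levels.

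**Figure D1:**
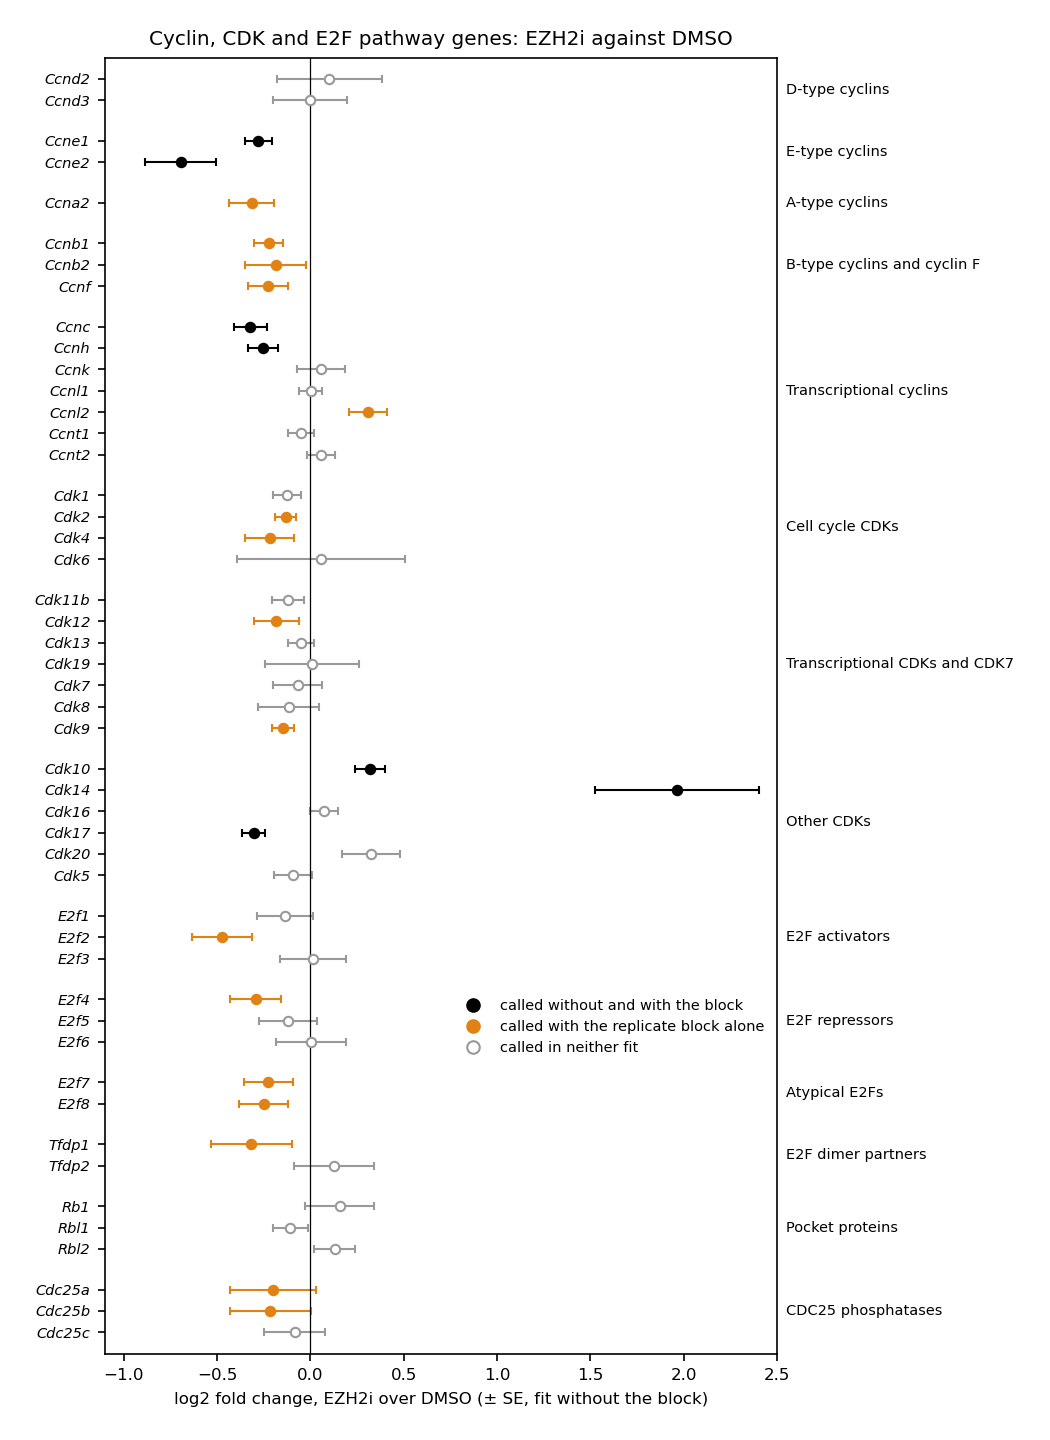
Log2 fold change (EZH2i over DMSO) of the 48 tested members, grouped by role, with its SE as the bar, in the fit without the replicate block. Black points were called without and with the block, orange points with the block but not without it and open grey points in neither. Cdk14 stands at 1.97, and all other members lie between -0.69 and 0.33.

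The stretch of DNA before a gene's start was read for the motifs of the cycle's own regulators, since E2F factors and the MuvB complex act on many of these genes through it. Windows of 250 bases before to 50 bases after the start came from RefSeq for the mouse build GRCm38.p6, with 47 windows for 41 of the 53 members. The E2F motif was taken as TTCCCGC or TTGGCGC or TTCGCGC or TTGCCGC on either strand, where a TTGGCGC on each strand can overlap, as in Cdc25a. The CHR motif of MuvB was taken as TTTGAA or TTCGAA on either strand. An E2F motif was found in 29.8% of the members' windows, against 16.9% of 11461 windows of tested genes and 9.57% of 32851 windows of all genes. A CHR motif was found in 19.1% of the members' windows, against 13.7% of those of tested genes and 19.2% of all. Of the 20 members called lower with the block, 15 had a window and 10 of these held either motif (Ccnb1, Cdk2, E2f7, Tfdp1 and Cdc25a an E2F motif, Ccnb2, Ccnf and Cdc25b a CHR motif, E2f2 and E2f8 both). Of the 25 called in neither direction, 19 had a window and 7 held either motif. None of the 3 called higher, Ccnl2, Cdk10 and Cdk14, held one. These counts are per gene, with the windows of a gene pooled. The share of all tested genes holding either motif was not computed, so the counts show no tie between motif and call. The windows of Ccna1, Ccnt1, Cdk6, Cdk9, Cdk14, E2f1 and Tfdp2, all without a motif, lie inside the gene as annotated by GENCODE. For these genes the bases before the GENCODE start were not read. A match is a match of letters and says nothing of binding. The windows of 5 members are shown to set windows with a motif beside windows without one. Ccne1 (chr7:38107441-38107740, minus strand) and Cdk14 (chr5:5380202-5380501, minus strand, inside the GENCODE gene) are called members with no match in these windows. Ccnb1 (chr13:100786437-100786736, minus strand) and E2f2 (chr4:136172024-136172323, plus strand, the first of its 2 windows) hold an E2F motif. Ccnb2 (chr9:70421505-70421804, minus strand) holds 2 CHR motifs. Each runs 5′ to 3′ along the gene, and capitals mark the motif.
Ccne1: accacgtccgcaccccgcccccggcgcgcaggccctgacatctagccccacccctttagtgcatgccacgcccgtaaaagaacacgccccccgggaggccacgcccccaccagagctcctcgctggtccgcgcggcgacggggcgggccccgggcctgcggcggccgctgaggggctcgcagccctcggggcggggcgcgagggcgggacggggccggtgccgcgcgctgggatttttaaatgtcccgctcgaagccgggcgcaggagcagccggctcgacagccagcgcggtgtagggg
Ccnb1: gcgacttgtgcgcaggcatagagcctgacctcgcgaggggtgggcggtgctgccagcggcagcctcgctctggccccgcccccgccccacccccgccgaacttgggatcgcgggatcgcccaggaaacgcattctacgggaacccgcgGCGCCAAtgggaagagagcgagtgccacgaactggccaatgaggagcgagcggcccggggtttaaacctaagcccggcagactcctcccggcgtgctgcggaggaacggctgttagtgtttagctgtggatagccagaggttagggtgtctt
Ccnb2: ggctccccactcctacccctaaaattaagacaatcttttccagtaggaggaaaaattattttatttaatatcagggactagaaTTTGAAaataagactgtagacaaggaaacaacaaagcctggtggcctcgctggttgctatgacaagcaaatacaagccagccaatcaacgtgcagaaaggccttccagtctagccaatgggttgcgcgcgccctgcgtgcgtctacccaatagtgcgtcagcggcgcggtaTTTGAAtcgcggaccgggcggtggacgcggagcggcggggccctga
E2f2: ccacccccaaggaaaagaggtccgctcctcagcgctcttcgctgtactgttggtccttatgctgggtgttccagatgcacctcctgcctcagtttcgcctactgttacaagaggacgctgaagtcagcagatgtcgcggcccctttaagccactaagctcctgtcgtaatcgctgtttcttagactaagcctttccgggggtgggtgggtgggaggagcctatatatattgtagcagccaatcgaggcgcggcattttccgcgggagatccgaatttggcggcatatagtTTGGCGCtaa
Cdk14: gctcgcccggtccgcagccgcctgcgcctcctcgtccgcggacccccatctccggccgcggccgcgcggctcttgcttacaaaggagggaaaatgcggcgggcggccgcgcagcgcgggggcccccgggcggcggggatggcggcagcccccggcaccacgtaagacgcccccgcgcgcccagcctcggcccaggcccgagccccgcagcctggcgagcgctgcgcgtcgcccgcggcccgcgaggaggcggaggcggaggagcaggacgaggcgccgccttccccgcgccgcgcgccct
In Ccnb1 the capitals are TTGGCGC read on the opposite strand, 102 bases before the start. In E2f2 TTGGCGC begins 40 bases after it. In Ccnb2 the first TTTGAA lies 167 bases before and the second 4 bases after it.

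The D cyclins pass growth signals to CDK4 and CDK6. Ccnd2 (cyclin D2), the one with the most counts, had 208, 220 and 547 CPM as the lowest, median and highest EZH2i library and 189, 222 and 453 CPM in DMSO. The groups overlapped almost fully, and the highest value in each was library 6. Ccnd2 had a log2 fold change of 0.10 ± 0.281 (SE, adjusted p = 0.838), and without both libraries numbered 6 it was 0.03. Ccnd3 (cyclin D3) averaged 235 ± 70.7 CPM in EZH2i and 235 ± 67.0 CPM in DMSO. Neither was called without or with the block. Of the exon bases of Ccnd3, 14.8% also lie in exons of Bysl on the other strand. Ccnd1 (cyclin D1) was too low to be tested. Its libraries held 93 counts in EZH2i in all and 10 in DMSO, a ratio of 7.77 relative to the scaled totals (exact 95% interval 4.04 to 16.7, for counting error only). Every EZH2i library, at 0.354 to 0.867 CPM, was above every DMSO library, at 0 to 0.119 CPM. Fitted with no filter on low counts it was called higher (adjusted p = 9.2e-04). Even so, D cyclin RNA in both groups was nearly all Ccnd2 and Ccnd3.

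The E cyclins activate CDK2 at the entry to DNA replication, and both were lower with EZH2i. Ccne1 (cyclin E1) had 61.7, 64.8 and 74.6 CPM as lowest, median and highest in EZH2i, and 73.2, 79.3 and 91.8 CPM in DMSO. Only the tips of the groups overlapped, and the highest value in each group was again library 6. Ccne1 had a log2 fold change of -0.28 ± 0.0715 (SE, adjusted p = 0.0146), with all 6 pairs lower in EZH2i. Ccne2 (cyclin E2) had the largest fall of the 53 genes, with 21.9, 27.0 and 38.5 CPM in EZH2i and 37.7, 40.6 and 74.7 CPM in DMSO. Apart from library 6 the groups stood clear of each other, with 21.9 to 31 CPM in EZH2i and 37.7 to 42.6 CPM in DMSO. Its log2 fold change was -0.69 ± 0.190 (SE, adjusted p = 0.0211), and -0.61 without both libraries numbered 6. Leaving out EZH2i library 4 alone ended both calls (adjusted p = 0.0552 for Ccne1 and 0.0615 for Ccne2), and for Ccne2 so did leaving out EZH2i library 3 (adjusted p = 0.0518) or EZH2i library 5 (adjusted p = 0.0508). On the genome, 10.5% of the exon bases of Ccne2 also lie in exons of Ints8 on the other strand, and the strand setting of the counting is not given in the sources used here.

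Cyclin A acts in S phase and at the start of mitosis. Ccna2 (cyclin A2) had 362, 556 and 605 CPM in EZH2i and 525, 672 and 730 CPM in DMSO, with library 6 the lowest of both groups. The other 5 libraries of each group did not overlap, at 516 to 605 CPM in EZH2i and 654 to 730 CPM in DMSO. Its log2 fold change of -0.31 ± 0.119 (SE) missed the threshold (adjusted p = 0.0842). It was called with the block (adjusted p = 1.9e-04) and without both libraries numbered 6 (log2 fold change -0.28, adjusted p = 6.6e-04), and also without EZH2i library 6 alone (adjusted p = 0.0484) or DMSO library 6 alone (adjusted p = 0.0305). The exons of Ccna2 share 10.4% of their bases with Exosc9 on the other strand. Ccna1, the germ cell form, had no count in any library, which allows up to 0.0186 CPM over the EZH2i group and 0.0223 CPM over the DMSO group (3 counts each).

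The B cyclins bring CDK1 to its peak in mitosis, and cyclin F is a part of a ubiquitin ligase that marks proteins late in the cycle. None of the 3 tested was called without the block, and all 3 were lower with it. Ccnb2 (cyclin B2), the highest of them per length, had 158, 278 and 291 CPM in EZH2i and 182, 315 and 332 CPM in DMSO. Library 6 was far below the rest of both groups, and the rest did not overlap, at 276 to 291 CPM in EZH2i and 307 to 332 CPM in DMSO. Ccnb2 had a log2 fold change of -0.19 ± 0.166 (SE, adjusted p = 0.487), and the block left it at -0.19 (adjusted p = 0.0039). Ccnb1 (cyclin B1) averaged 176 ± 11.6 CPM in EZH2i and 205 ± 21.4 CPM in DMSO, a log2 fold change of -0.22 (adjusted p = 0.0574, and 0.00451 with the block). Ccnf (cyclin F) averaged 134 ± 17.8 CPM in EZH2i and 156 ± 19.0 CPM in DMSO, a log2 fold change of -0.23 (adjusted p = 0.168, and 6.9e-04 with the block). Ccnb1 was also called without EZH2i library 6 alone (adjusted p = 0.0452), and Ccnb1 and Ccnf without DMSO library 6 alone (adjusted p = 0.0159 and 0.0359). Ccnb3 had no count in any library.

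**Figure D2:**
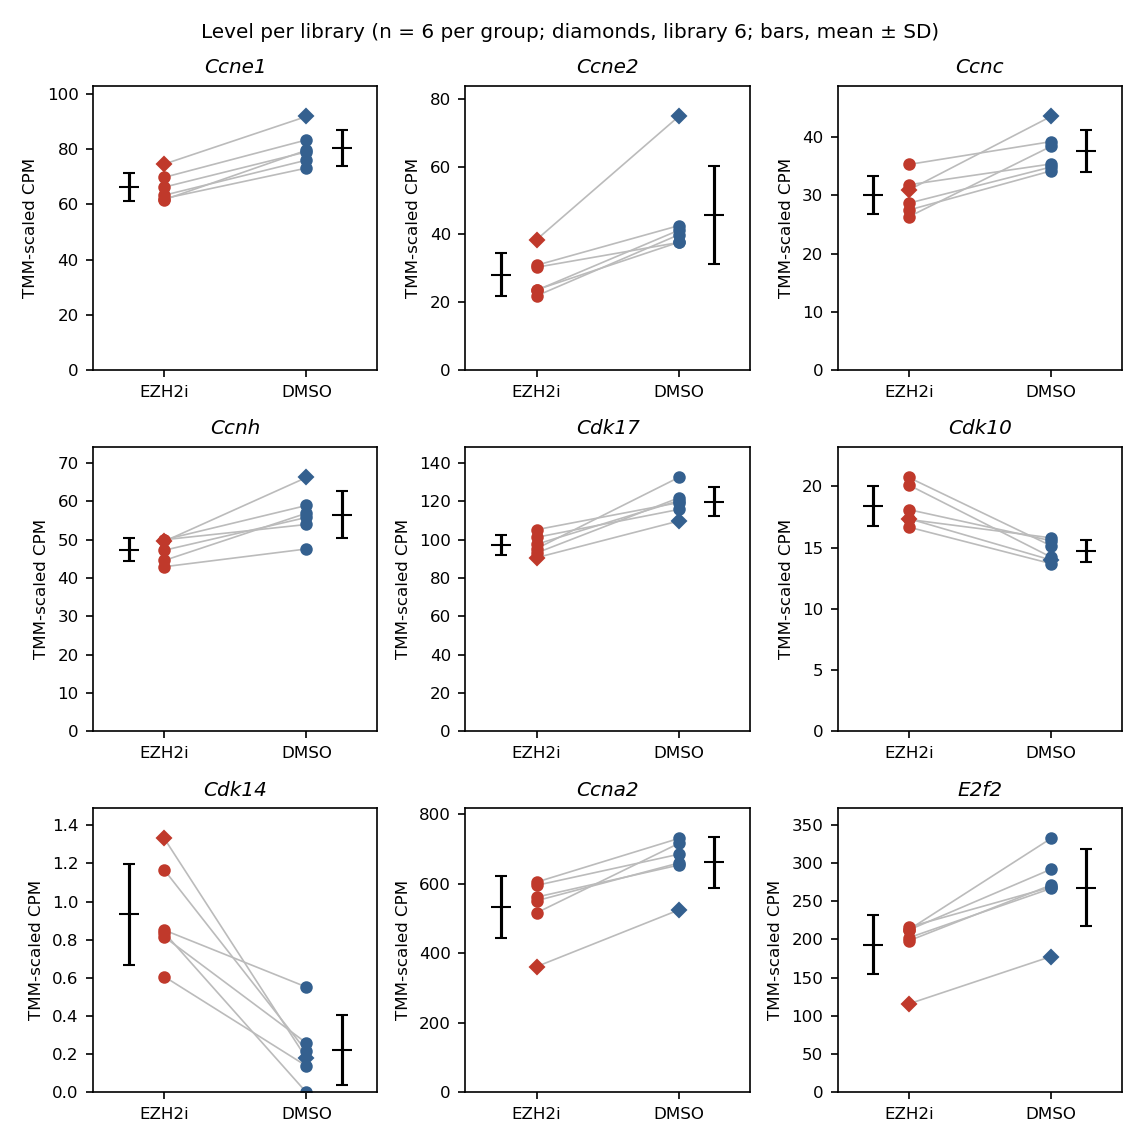
CPM in each library for the 7 called members and for Ccna2 and E2f2, EZH2i left of DMSO in each panel, on linear axes from 0, with lines joining same-numbered libraries, diamonds for library 6 and bars for mean ± SD (n = 6 each). Cdk17, Cdk10 and Cdk14 do not overlap between the groups, and Ccna2 (362 and 525 CPM) and E2f2 (116 and 178 CPM) are lowest in library 6 of both.

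None of the 4 cell cycle kinases was called without the block. Cdk4, the partner of the D cyclins, had 200, 227 and 337 CPM in EZH2i and 234, 275 and 361 CPM in DMSO. The groups overlapped, with library 6 the highest of each. Cdk4 had a log2 fold change of -0.22 ± 0.131 (SE, adjusted p = 0.276), with an adjusted p of 0.00402 with the block and 0.00621 without both libraries numbered 6. Leaving out EZH2i library 6 alone also made it a call (log2 fold change -0.34, adjusted p = 0.0202). Of the exon bases of Cdk4, 31.2% also lie in exons of Tspan31 on the other strand. Cdk2, the partner of cyclins E and A, averaged 75.7 ± 4.22 CPM in EZH2i and 83.0 ± 3.56 CPM in DMSO, and was called lower with the block (log2 fold change -0.13, adjusted p = 0.0442). Cdk1, the mitotic kinase, averaged 178 ± 19.2 CPM in EZH2i and 194 ± 10.2 CPM in DMSO (adjusted p = 0.278, and 0.0434 without both libraries numbered 6). Cdk6, which shares the D cyclins with Cdk4, was at 17 to 20.5 CPM in the other EZH2i libraries and 69.0 CPM in EZH2i library 6, and at 15.8 to 23.6 CPM in the other DMSO libraries and 68.4 CPM in DMSO library 6. The log2 fold change was 0.06, with no call in either fit.

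The CDC25 phosphatases remove the inhibitory phosphates from CDKs. None was called without the block. Cdc25b, the highest of them per length, had 214, 512 and 548 CPM in EZH2i and 311, 586 and 619 CPM in DMSO. Library 6 was lowest in both groups, and the other libraries did not overlap, at 489 to 548 CPM in EZH2i and 558 to 619 CPM in DMSO. Cdc25b had a log2 fold change of -0.22 ± 0.217 (SE, adjusted p = 0.548), and -0.24 with the block (adjusted p = 0.00243). Cdc25a averaged 35.2 ± 14.3 CPM in EZH2i and 40.5 ± 11.6 CPM in DMSO, and was also called lower with the block (log2 fold change -0.23, adjusted p = 0.00887) and without EZH2i library 6 alone (adjusted p = 0.0377). Cdc25c, at 41.1 ± 8.89 CPM in EZH2i and 43.5 ± 7.37 CPM in DMSO, was called in neither fit.

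E2F1 to E2F3 are the activating E2Fs, which drive replication genes. E2f2 was the highest of them per length and showed the largest difference among the E2Fs, with 116, 207 and 216 CPM in EZH2i and 178, 270 and 332 CPM in DMSO. Library 6 was the lowest of both groups, and without it EZH2i lay at 198 to 216 CPM and DMSO at 267 to 332 CPM, with no overlap. E2f2 had a log2 fold change of -0.47 ± 0.162 (SE), and just missed the threshold (adjusted p = 0.0577). It was called with the block (adjusted p = 2.7e-06), without both libraries numbered 6 (log2 fold change -0.45, adjusted p = 2.3e-05), and without EZH2i library 6 or DMSO library 6 alone (adjusted p = 0.0305 and 0.0112). E2f1 averaged 28.6 ± 5.44 CPM in EZH2i and 31.5 ± 6.81 CPM in DMSO. E2f3 averaged 29.5 ± 8.07 CPM in EZH2i and 29.3 ± 6.81 CPM in DMSO, and neither it nor E2f1 was called in any fit.

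E2F4 to E2F6 are repressors, of which E2F4 and E2F5 act with pocket proteins in resting cells. E2f4 had 107, 124 and 165 CPM in EZH2i and 111, 157 and 203 CPM in DMSO. The groups overlapped over much of their range. Its log2 fold change of -0.29 ± 0.134 (SE, adjusted p = 0.148) was called with the block (adjusted p = 4.8e-04), without EZH2i library 6 alone (log2 fold change -0.38, adjusted p = 0.0268) and without DMSO library 4 alone (log2 fold change -0.38, adjusted p = 0.0369). E2f5, at 4.10 to 6.84 CPM in EZH2i and 5.05 to 6.65 CPM in DMSO, and E2f6, at 33.4 ± 9.39 CPM in EZH2i and 33.3 ± 8.79 CPM in DMSO, were not called. The atypical E2Fs, which bind DNA without a dimer partner and repress late in S phase, were both called lower with the block. E2f8 had 76.6, 119 and 136 CPM in EZH2i and 112, 144 and 152 CPM in DMSO. The groups overlapped, with EZH2i library 6 the lowest value of all, and its log2 fold change was -0.25 ± 0.131 (SE, adjusted p = 0.209, and 0.00363 with the block). E2f7 averaged 24.9 ± 3.69 CPM in EZH2i and 29.1 ± 4.70 CPM in DMSO (log2 fold change -0.22, adjusted p = 0.264, and 0.00767 with the block).

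Tfdp1 encodes DP1, the main dimer partner of the E2Fs. It had 184, 209 and 410 CPM in EZH2i and 221, 275 and 463 CPM in DMSO. Library 6 was above every other library in both groups, and the rest overlapped slightly, at 184 to 229 CPM in EZH2i and 221 to 293 CPM in DMSO. Its log2 fold change was -0.32 ± 0.216 (SE, adjusted p = 0.347). It was called lower with the block (adjusted p = 1.7e-04), without both libraries numbered 6 (log2 fold change -0.37, adjusted p = 9.2e-04) and without EZH2i library 6 alone (log2 fold change -0.54, adjusted p = 0.0172). Tfdp2, encoding DP2, averaged 58.3 ± 15.5 CPM in EZH2i and 53.3 ± 11.6 CPM in DMSO and was called higher without both libraries numbered 6 (log2 fold change 0.16, adjusted p = 0.0335).

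The pocket proteins hold E2Fs back, and none was called without or with the block. Rbl1 (p107), the highest of them per length, had 138, 189 and 206 CPM in EZH2i and 170, 206 and 213 CPM in DMSO. The groups overlapped, and its log2 fold change was -0.11 ± 0.0941 (SE, adjusted p = 0.477). Rb1, the retinoblastoma gene, averaged 139 ± 34.0 CPM in EZH2i and 125 ± 22.6 CPM in DMSO, and Rbl2 (p130) 145 ± 20.3 CPM in EZH2i and 132 ± 15.4 CPM in DMSO. Both were called higher without both libraries numbered 6, Rb1 by 0.19 on the log2 scale (adjusted p = 0.0209) and Rbl2 by 0.14 (adjusted p = 0.0262). Rbl2 was higher in EZH2i in all 6 pairs.

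**Figure D3:**
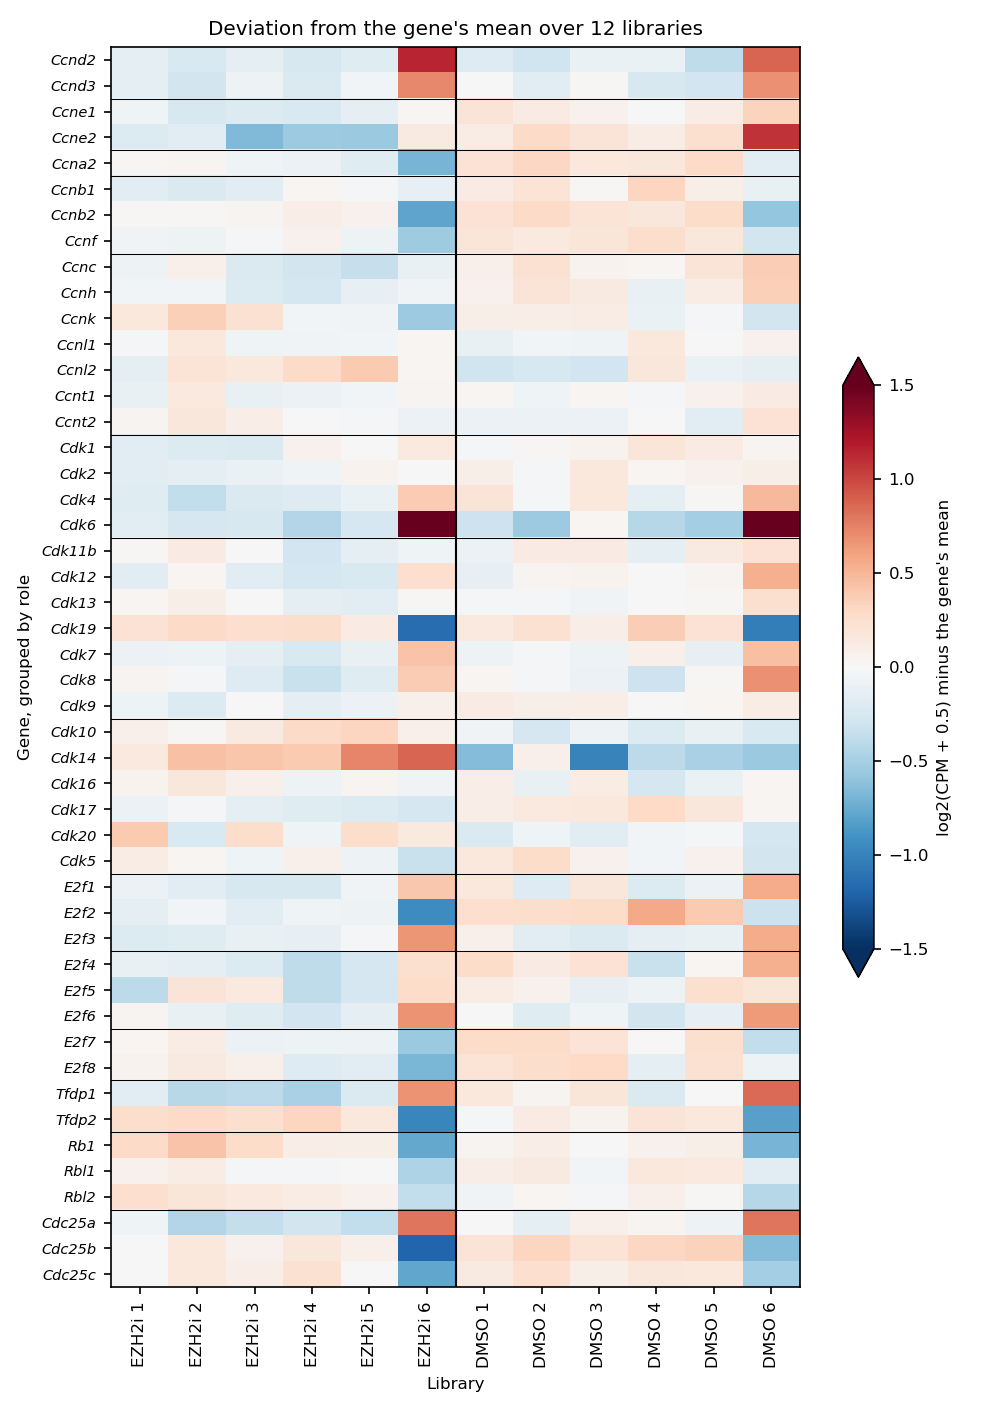
Log2(CPM + 0.5) of each tested member in each library relative to the gene's mean over all 12, coloured up to 1.5 either way, with EZH2i libraries left of DMSO libraries and members ordered by role. The columns of library 6 differ from the other 5 of their group in the same direction in both groups, upward for Ccnd2, Ccnd3, Cdk6 and Tfdp1 and downward for Ccnb2, Cdk19, Tfdp2 and Cdc25b.

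Cyclins C, H, K, L and T serve kinases that act on transcription and splicing. Ccnc, the cyclin of the Mediator kinases CDK8 and CDK19, had 26.3, 29.8 and 35.3 CPM in EZH2i and 34.2, 36.9 and 43.5 CPM in DMSO. The groups overlapped only at the edge. Ccnc had a log2 fold change of -0.32 ± 0.0893 (SE, adjusted p = 0.0231), and the call was lost without EZH2i library 3, 4 or 5 (adjusted p = 0.0549, 0.0641 and 0.0546). Of its exon bases, 6.32% also lie in exons of Tstd3 on the other strand. Ccnh, the cyclin of the kinase CDK7, had 42.9, 48.4 and 49.99 CPM in EZH2i and 47.6, 56.3 and 66.2 CPM in DMSO. The groups overlapped, and its log2 fold change was -0.25 ± 0.0799 (SE, adjusted p = 0.0400). This call was the least stable of the 7, made in 8 of the 19 other settings and lost without any 1 of EZH2i libraries 1 to 5 or DMSO libraries 2, 3, 5 or 6 (highest adjusted p = 0.107, without EZH2i library 4) and with upper-quartile scaling (adjusted p = 0.0946).

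Ccnl2, a cyclin of splicing kinases, had the most counts of these cyclins. It had 98.2, 123 and 143 CPM in EZH2i and 88, 95 and 122 CPM in DMSO. The groups overlapped, yet all 6 pairs were higher in EZH2i. Its log2 fold change of 0.31 ± 0.103 (SE) missed the threshold (adjusted p = 0.0520) and was called with the block (adjusted p = 6.2e-04) and without both libraries numbered 6 (log2 fold change 0.34, adjusted p = 0.0109). Leaving out EZH2i library 1, EZH2i library 6 or DMSO library 4 also made it a call (adjusted p = 0.0242, 0.0253 and 0.0125). Ccnk, Ccnl1, Ccnt1 and Ccnt2 had log2 fold changes of -0.05 to 0.06 and no call in either fit, at means of 25.8 to 108 CPM in EZH2i and 26.8 to 104 CPM in DMSO.

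The transcriptional kinases gave no call without the block. Cdk19, a kinase of Mediator and the one with the most counts, had 71.6, 186 and 193 CPM in EZH2i and 76.8, 180 and 205 CPM in DMSO. Library 6 was below every other library in both groups, and the groups overlapped. Cdk19 had a log2 fold change of 0.01 ± 0.251 (SE, adjusted p = 0.987). Cdk9, the kinase of the elongation factor P-TEFb, averaged 85.3 ± 6.05 CPM in EZH2i and 94.2 ± 3.19 CPM in DMSO and was called lower with the block (log2 fold change -0.15, adjusted p = 0.0248) and without EZH2i library 6 alone (adjusted p = 0.0239). Cdk12, which acts on long genes and DNA repair genes, averaged 62.8 ± 9.15 CPM in EZH2i and 71.3 ± 12.5 CPM in DMSO and was called lower with the block (log2 fold change -0.18, adjusted p = 0.0142). Cdk7, Cdk8, Cdk11b and Cdk13 had log2 fold changes of -0.12 to -0.05 and no call in either fit. The kinases that Ccnh and Ccnc serve were thus not called.

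The remaining CDKs held the 3 tested members whose groups did not overlap, which was so for 10.2% of all tested genes, 7.50% with EZH2i higher and 2.74% with EZH2i lower. Cdk17 and Cdk10 were called in all 19 other settings. Cdk14 was too, but it passed the filter on low counts through the EZH2i libraries, as given below. Cdk17, a kinase of the PCTAIRE family, had 90.7, 96.5 and 105 CPM in EZH2i and 110, 120 and 133 CPM in DMSO. Every EZH2i library was below every DMSO library, and the log2 fold change was -0.30 ± 0.0606 (SE, adjusted p = 0.0033). Cdk10, the partner of cyclin M, had 16.7, 17.7 and 20.7 CPM in EZH2i and 13.7, 14.7 and 15.8 CPM in DMSO. Every EZH2i library was above every DMSO library, and the log2 fold change was 0.32 ± 0.0795 (SE, adjusted p = 0.0129).

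Cdk14, a kinase that acts with cyclin Y in Wnt signalling, had the largest change of the 48. It was low in both groups, with 0.607, 0.844 and 1.33 CPM in EZH2i and 0, 0.197 and 0.552 CPM in DMSO. The lowest EZH2i library was close to the highest DMSO library. Its log2 fold change was 1.97 ± 0.440 (SE, adjusted p = 0.00676), and 1.73 to 2.47 with 1 library left out. It lay in the lowest of the 4 groups by level, where 30.0% of all genes were called higher. It passed the filter on low counts through the EZH2i libraries, where it is high, and so had to differ to be tested. Its calls in the other settings and its lack of overlap are therefore no sign of stability.

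Cdk18, a relative of Cdk17, was not tested. It had 20 counts over the EZH2i libraries, all 6 of which held some, and 0 over the DMSO libraries. Set against a floor of 3 counts over the DMSO group, the ratio was 5.57. This takes the 20 EZH2i counts as free of error and is no lower bound. Cdk18 was called higher with no filter on low counts (adjusted p = 0.0135). Cdk15 had 8 counts in EZH2i and 2 in DMSO, a ratio of 3.34 (exact 95% interval 0.667 to 32.3, for counting error only). Cdk16, Cdk20 and Cdk5 were called in neither fit, with log2 fold changes of 0.07, 0.33 and -0.09. In bulk RNA such as this, fewer cells making a transcript and less of it per cell cannot be told apart.

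**Figure D4:**
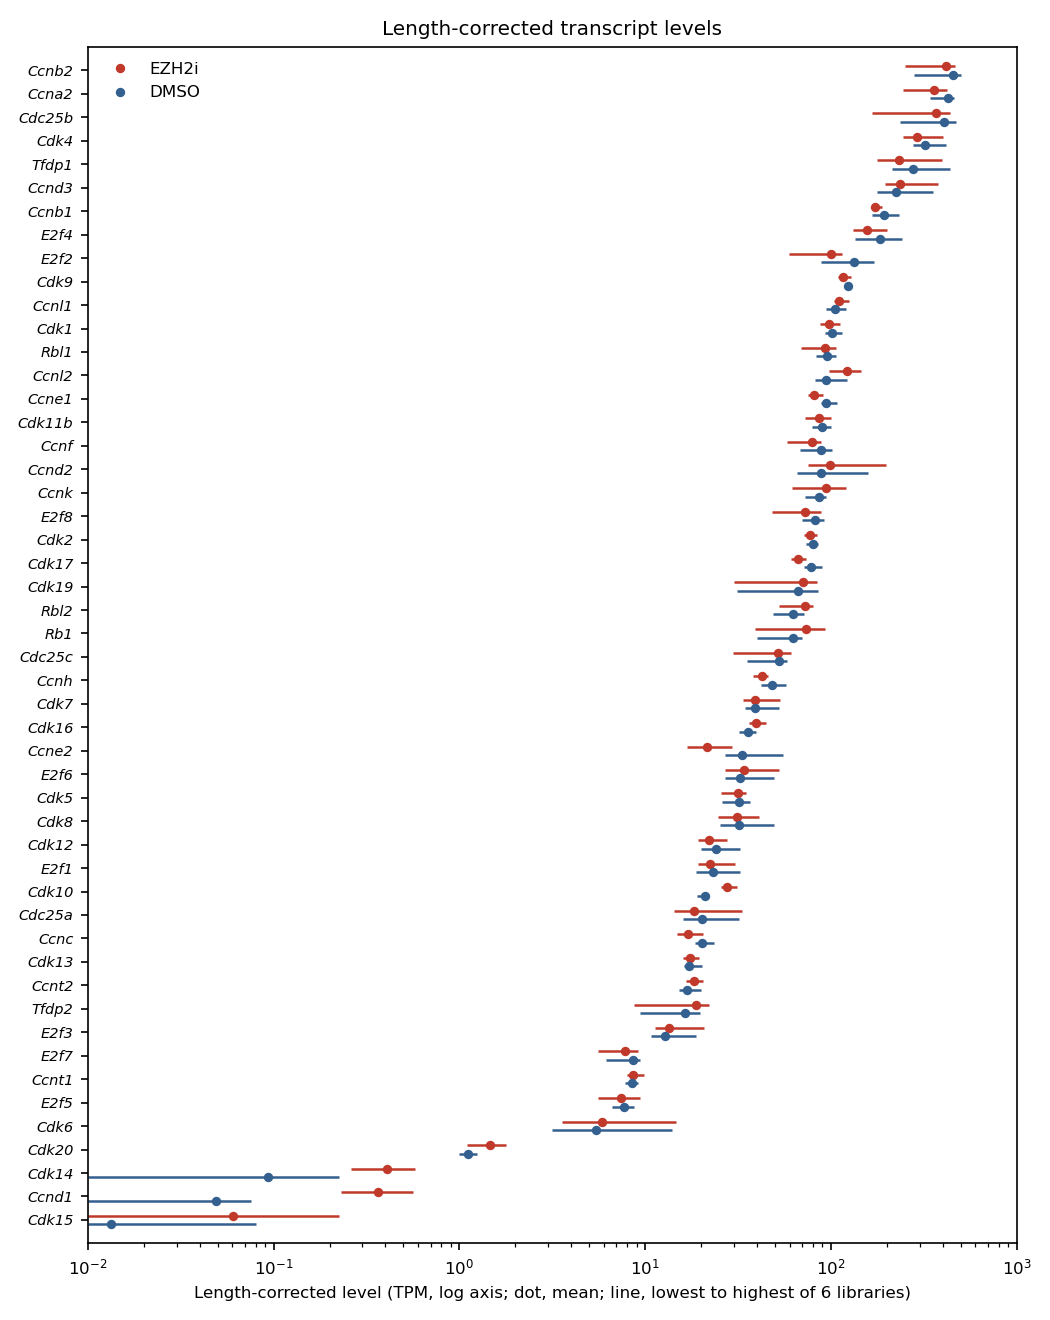
TPM (counts per length, scaled to the library) of the members on a log axis that starts at 0.01, EZH2i above DMSO for each gene, with points for the mean and lines from the lowest to the highest library. Lines reach the left edge where the lowest library is at 0, and genes at 0 in a group (Ccna1 and Ccnb3 in both, Cdk18 in DMSO) are not drawn. Ccnb2, Cdc25b, Ccna2 and Cdk4 are highest in both groups.

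Levels of different genes were compared per length, in TPM, from merged exon lengths of GENCODE M21 on GRCm38, which were found for 23332 of the symbols and all 53 members. Among the cyclins, Ccnb2 was highest, at 419 ± 82.8 TPM in EZH2i and 453 ± 85.3 TPM in DMSO. Ccna2 followed at 361 ± 62.3 TPM in EZH2i and 426 ± 44.4 TPM in DMSO, which overlapped the range of Ccnb2. Then came Ccnd3, at 236 ± 69.5 TPM in EZH2i and 225 ± 65.2 TPM in DMSO, and Ccnb1, at 173 ± 10.7 TPM in EZH2i and 193 ± 22.2 TPM in DMSO. Per length, Ccnd3 was above Ccnd2, which was at 99.1 ± 48.7 TPM in EZH2i and 88.3 ± 35.5 TPM in DMSO. The E cyclins were lower, Ccne1 at 81.4 ± 5.62 TPM in EZH2i and 94.1 ± 7.42 TPM in DMSO and Ccne2 at 21.6 ± 4.81 TPM in EZH2i and 33.4 ± 10.7 TPM in DMSO. Cdk4 was the highest kinase, at 290 ± 55.4 TPM in EZH2i and 321 ± 50.9 TPM in DMSO, and its partner Cdk6 stood at 5.85 ± 4.29 TPM in EZH2i and 5.42 ± 4.25 TPM in DMSO. Among the E2Fs, E2f4 and E2f2 were highest, E2f4 at 157 ± 24.0 TPM in EZH2i and 184 ± 34.7 TPM in DMSO, and E2f2 at 100.1 ± 20.4 TPM in EZH2i and 132 ± 26.5 TPM in DMSO. Their ranges over libraries overlapped in DMSO and stood apart in EZH2i, at 131 to 202 TPM for E2f4 and 59.5 to 115 TPM for E2f2.

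The genes around the machinery were read as lists. Among target genes of E2F at the start of S phase (the G1/S targets), 17 of 30 tested were called lower and none higher, where 6.05% of all tested genes were called lower. All 30 had a negative log2 fold change, and the median was -0.28, against -0.01 for all tested genes. In 9 of them the groups did not overlap, which with EZH2i lower was so for 2.74% of all genes. The largest falls were those of Tyms, which makes thymidylate (66.1 ± 4.08 CPM in EZH2i and 98.7 ± 6.37 CPM in DMSO, log2 fold change -0.58, adjusted p = 4.3e-05), Cdc6, which loads the replicative helicase (-0.43, adjusted p = 0.0448), Uhrf1, which recognises hemimethylated DNA (-0.42, adjusted p = 0.00229), and Pcna, the sliding clamp of replication (481 ± 46.7 CPM in EZH2i and 632 ± 39.6 CPM in DMSO, -0.39, adjusted p = 0.0019). With the block 27 were called lower, against 24.3% of all genes. Lower calls were more common at high levels. In the highest of the 4 groups by level, where Pcna lies, 11.7% of all genes were called lower without the block and 42.1% with it. The median log2 fold change of that group was -0.11. With 1 library left out the number of G1/S targets called lower was 14 to 25, with 25 without EZH2i library 6. Cdc6 kept its call in 2 of these 12 fits, and Tyms, Uhrf1 and Pcna in all 12.

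Genes of G2 and mitosis gave no call without the block: of 31 tested, 0 were called by edgeR and 2 had an unadjusted p under 0.05, with a median log2 fold change of -0.16. DESeq2 called 2 lower. With the block 19 were called lower, against 24.3% of all genes, and without both libraries numbered 6, 13, against 20.9%. In the highest of the 4 groups by level, where Ccnb1 and Ccnb2 lie, 42.1% of all genes were called lower with the block. The median log2 fold change of that group was -0.11. The smallest p was that of Ccnb1, given above, since this list holds Ccnb1 and Ccnb2.

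The CDK inhibitors bind and block the kinases. Of 8 tested, 4 were called higher and none lower, where 13.3% of all genes were called higher and 6.05% lower. The median log2 fold change was 0.42, with 5 positive and 3 negative. Cdkn2a, which encodes p16 and a second protein in another frame, had 9.46, 12.5 and 24.6 CPM in EZH2i and 0.323, 0.590 and 1.49 CPM in DMSO (log2 fold change 4.36, adjusted p = 3.4e-06). Cdkn2b, encoding p15, averaged 1.83 ± 0.786 CPM in EZH2i and 0.155 ± 0.176 CPM in DMSO (3.63, adjusted p = 4.9e-04). Both loci are known targets of Polycomb repression. Cdkn1c, encoding p57, averaged 0.815 ± 0.330 CPM in EZH2i and 0.274 ± 0.10 CPM in DMSO (1.51, adjusted p = 0.0156). Cdkn1a, encoding p21, had 45.9, 56.6 and 116 CPM in EZH2i and 28.5, 36.4 and 44.9 CPM in DMSO (0.83, adjusted p = 0.0130), with library 6 the highest in EZH2i. These 4 calls were made in all 12 fits with 1 library left out. Cdkn2b passed the filter on low counts through the EZH2i libraries, where it is high, and so had to differ to be tested. Cdkn1c passed mostly through them, with 5 EZH2i libraries and 1 DMSO library at the level the filter asks for. The calls of Cdkn2b and Cdkn1c are thus no support for the list. At that level Cdkn2b had 1 DMSO library, Cdkn2a 5 and Cdkn1a 6. Cdkn2b and Cdkn1c also lie in the lowest of the 4 groups by level, from 0.318 to 8.61 CPM. There 30.0% of all genes were called higher, and the group's median was 0.37 on the log2 scale. The list's 4 higher calls and its median of 0.42 include these 2 genes and are to be read beside those values. With the block 4 inhibitors were called higher and 2 lower, against 24.7% and 24.3% of all genes. In the lowest group by level, 45.9% of all genes were called higher with the block.

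**Figure D5:**
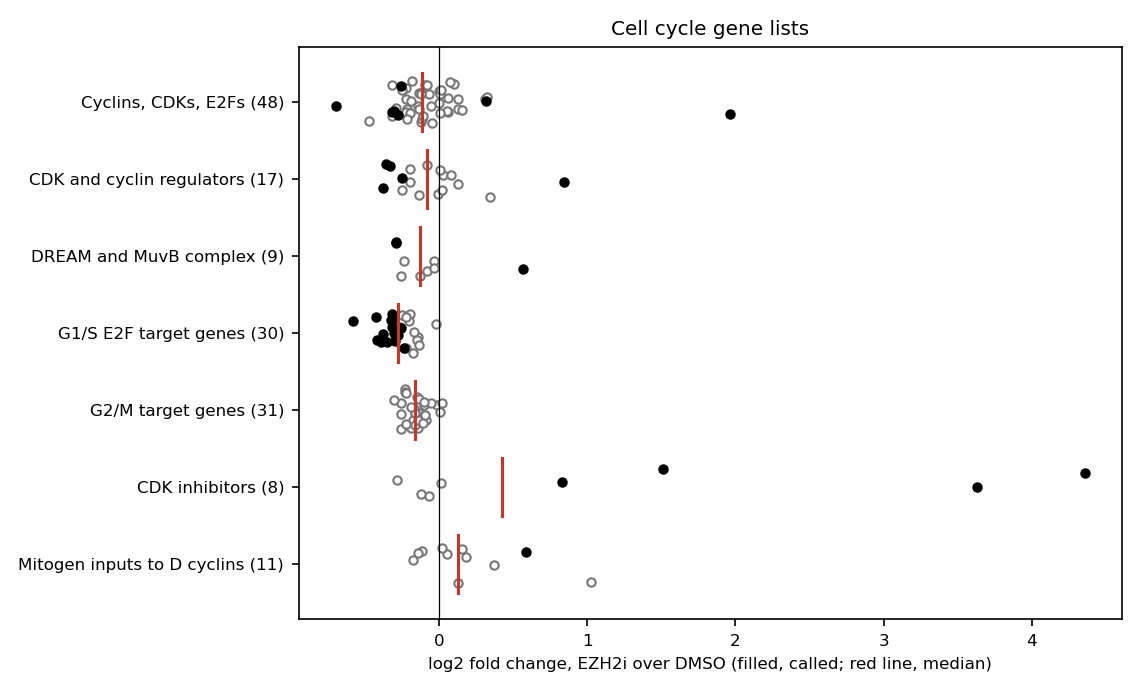
Log2 fold change (EZH2i over DMSO) of each tested gene, 1 row for the 48 members and 1 for each pathway list, with the number tested beside its name and a line at the median. Filled points were called in the fit without the block and open points were not. The G1/S E2F target genes lie wholly below 0, and the CDK inhibitors reach 4.36.

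Of 17 regulators of CDKs and cyclins, 1 was called higher and 4 lower, and this and the other counts without the block are to be read beside the 13.3% of all genes called higher and 6.05% lower. Cables1, which links CDKs to their inhibitory tyrosine kinases, had 43.0 to 73.2 CPM in EZH2i and 24.6 to 38.2 CPM in DMSO (log2 fold change 0.84, adjusted p = 7.2e-04). Skp2, which marks p27 for destruction (-0.38, adjusted p = 0.0326), Cks2, a small CDK subunit (-0.36, adjusted p = 0.0010), and Fbxo5, an inhibitor of the anaphase-promoting complex (-0.33, adjusted p = 0.0226), fell. The calls of Cables1 and Cks2 held in all 12 fits with 1 library left out, that of Fbxo5 in 11 (not without EZH2i library 5, adjusted p = 0.0541) and that of Skp2 in 4 (highest adjusted p = 0.0769, without EZH2i library 5). The count called lower was 1 to 5 over these fits and 7 with the block, against 24.3% of all genes. With upper-quartile scaling it was 1, and Skp2 and Fbxo5 lost their calls (adjusted p = 0.0612 and 0.0642). Of 9 genes of the DREAM and MuvB complexes, which hold cycle genes silent or switch on the mitotic ones, Myb, a relative of the MuvB partner Mybl2, was called higher (0.57, adjusted p = 0.0466) and Lin52 and Lin9 lower (-0.29 each, adjusted p = 0.0365 and 0.0322). The call of Myb held in 1 of the 12 fits with 1 library left out, that of Lin52 in 4 and that of Lin9 in 8, with adjusted p up to 0.101, 0.0738 and 0.0734. With upper-quartile scaling Myb kept its call (adjusted p = 0.0334), and Lin52 and Lin9 lost theirs (adjusted p = 0.109 and 0.0842). Of 11 genes that carry growth signals to the D cyclins, 1 was called higher, Klf2, a factor of resting T cells (255 ± 61.4 CPM in EZH2i and 170 ± 16.6 CPM in DMSO, log2 fold change 0.59, adjusted p = 0.0207, and 0.0514 without EZH2i library 5). With the block, 5 were called higher and 2 lower, against 24.7% and 24.3% of all genes.

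Library 6 moved the members in a like way in both groups. Of the 48, 15 were above and 15 below the other 5 libraries in both groups (31.2% each), against 28.5% and 31% of all tested genes. Those above were the D and E cyclins tested (Ccnd2, Ccnd3, Ccne1 and Ccne2), Cdk4, Cdk6, E2f1, E2f3, Cdc25a, Tfdp1, E2f4, E2f6, Cdk7, Cdk8 and Cdk12. Those below were Ccna2, Ccnb2, Ccnf, E2f2, E2f7, Cdc25b, Cdc25c, Rb1, Rbl1, Rbl2, Tfdp2, Ccnk, Cdk5, Cdk17 and Cdk19. For Cdk6, Ccnd2 and Cdk19 this difference between libraries of 1 group was far larger than that between EZH2i and DMSO. The labels give nothing that sets library 6 apart.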

How the data were processed

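RNA of 12 mouse CD8+ T cell libraries (6 EZH2i, 6 DMSO, grouped by the treatment in the labels) was analysed from the raw read counts per gene symbol that the authors deposited. Per the labels' protocols, a stranded mRNA kit and single-end reads were used. Per the submitters' processing notes, the tools were featureCounts, TopHat2 2.1.1, SAMtools 1.9, Trimmomatic 0.38 and FastQC 0.11.7, on the build GRCm38 (mm10). Annotation, strand setting and treatment of multiply mapped reads are given in no source used here, so overlapping genes are uncertain.

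Fits were made with edgeR 4.0.16 (R 4.3.3, limma 3.58.1): filterByExpr at its defaults, TMM scaling and a two-sided quasi-likelihood test of the group, adjusted over all 11727 genes kept. The SE is the log2 fold change over the square root of F. Alternatives were DESeq2 1.42.0, other scalings, no filter, the replicate block and libraries left out.

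After the group means were subtracted, same-numbered libraries correlated across genes at r = 0.213 to 0.847, all over 0.1, so the numbers were taken to pair them. Without number 6 the lowest r was 0.0372. With all numbers, 4 of the 6 EZH2i libraries correlated best with their own DMSO number. No replicate pair matched within sampling noise (chi-square per degree of freedom at least 4.89 in 30 pairs).

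The members and gene lists were chosen with earlier results of these data known. Full values are given for each called member, each member with a log2 fold change of 0.3 or more in size whose call changes with the block or without both libraries 6, and the member of each role with the highest mean CPM; of each list, up to 4 called genes by size, or the one with the smallest p.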

Additional observations from a re-analysis of the deposited data

Results flagged for a closer look

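In each group of 6 libraries, the highest or lowest was compared with its nearest neighbour, and its gap, divided by the range of the group, was set against Dixon's 95% critical value for 6 values. Of 96 sets of 6 values (48 members in 2 groups), 43 passed it, in 26 genes, and in all of them the library apart was library 6. Chance passes about 1 in 20 such sets, and the genes of a library are not independent of each other.

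Library 6 was above the rest and passed the value in both groups for Ccnd2 at 547 CPM in EZH2i and 453 CPM in DMSO, Ccnd3 at 377 CPM in EZH2i and 367 CPM in DMSO and for Cdk6 at 69 CPM in EZH2i and 68.4 CPM in DMSO. The same held for Cdk7 at 43.4 CPM in EZH2i and 44.2 CPM in DMSO, E2f3 at 45.8 CPM in EZH2i and 42.6 CPM in DMSO and for E2f6 at 52 CPM in EZH2i and 50.8 CPM in DMSO. So it was also for Tfdp1 at 410 CPM in EZH2i and 463 CPM in DMSO and for Cdc25a at 63.9 CPM in EZH2i and 63.7 CPM in DMSO. It was above the rest and passed the value in EZH2i but not in DMSO for Cdk4 at 337 CPM and E2f1 at 39.3 CPM. It was above the rest and passed the value in DMSO but not in EZH2i for Ccne2 at 74.7 CPM, Cdk12 at 96.1 CPM, Cdk13 at 110 CPM and Cdk8 at 63 CPM.

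It was below the rest and passed the value in both groups for Ccna2 at 362 CPM in EZH2i and 525 CPM in DMSO, Ccnb2 at 158 CPM in EZH2i and 182 CPM in DMSO and for Ccnf at 98.9 CPM in EZH2i and 119 CPM in DMSO. The same held for Cdk19 at 71.6 CPM in EZH2i and 76.8 CPM in DMSO, Tfdp2 at 27.1 CPM in EZH2i and 30.4 CPM in DMSO and for Rb1 at 75 CPM in EZH2i and 79 CPM in DMSO. So it was also for Rbl2 at 106 CPM in EZH2i and 102 CPM in DMSO, Cdc25b at 214 CPM in EZH2i and 311 CPM in DMSO and for Cdc25c at 23.9 CPM in EZH2i and 28.9 CPM in DMSO. It was below the rest and passed the value in EZH2i but not in DMSO for E2f2 at 116 CPM, E2f7 at 18 CPM and Rbl1 at 138 CPM.

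The labels give nothing that sets library 6 apart.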

How the results depend on the processing

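No result changed its direction while called under any setting. The counts called higher and lower over all genes were 1557 and 709 with TMM scaling. The replicate block gave 2892 and 2849, leaving out both libraries numbered 6 gave 2815 and 2455, and the block without them, chosen after seeing the data, gave 3064 and 2843. The lower count was 347 with upper-quartile scaling and 1121 with DESeq2. With 1 library left out, the counts ran from 1297 to 2262 higher and from 435 to 1817 lower. For the members, 2 higher and 5 lower without the block became 3 and 20 with the block, 6 and 18 without both libraries 6, 6 and 21 with the block and without them, and 5 and 9 with DESeq2, and 4 were called higher with no filter on low counts. With 1 library left out these ran from 2 to 4 higher (Ccnd1, not among the 48, included) and from 1 to 13 lower. Over all pathway lists, 7 higher and 23 lower became 11 and 61 with the block, 11 and 52 without both libraries 6, and 12 and 58 with both changes, and 15 were lower with upper-quartile scaling. With 1 library left out these ran from 5 to 8 higher and from 15 to 34 lower. The cause of these shifts was not tested. The pairing of numbers 1 to 5 is not settled, and a call gained under the block rests on it. At these depths, genes with a few counts per library, such as Cdk15, give intervals too wide to show a difference.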
